A study of Mus musculus with 15 samples.

Results

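Eyes of 3-day-old Egr1-/- mice whose eyelids were not closed were set against eyes of newborn Egr1-/- mice, to describe how the labelled-knockout eye differed between day 3 and birth. The 6 libraries are all those titled as day 3 open or as newborn knockout, of 15 in the series. Each library was poly(A)+ RNA of an eye with its eyelids from mice labelled BALB/c. The Egr1-/- line came on C57BL/6 and was backcrossed to BALB/c. The 4 day 3 open libraries were the right eye of mouse E24, the left eye of E29 and both eyes of E32, all labelled Egr1-/-. The 2 newborn libraries were replicates 1 and 2 of Egr1-/-, and the labels name neither their animals nor whether their lids were closed. Since E32 gave both of its eyes, their reads were summed for the tests, which compared 3 mice with 2 newborn libraries. For the newborn libraries, p-values measure the spread between libraries, which may be technical. No label names a library batch, so that age and a batch that follows it cannot be told apart. As a second pair, the 2 closed eyes of the day 3 Egr1+/- mouse E28 were compared with the 2 newborn wild-type libraries.

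Egr1 encodes a zinc finger protein that switches on within minutes of growth factor signals and binds GC-rich promoter sites. In mice the eyelids grow over the eye, fuse before birth and separate again well after it, and mutants that fail to fuse them are born with bare eyes. Behind the lids the retina is still being built at birth. Ganglion, amacrine, horizontal and cone cells are largely born before it, rods, bipolar cells and Muller glia are still being added, and the inner retina is forming its synapses. Muscle, stroma and epidermis of the lids and cornea mature over the same days. In RNA of a whole eye, fewer cells of a type and less RNA per cell cannot be told apart.

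Reads in transcripts came to 33521183 to 39506180 in the day 3 open libraries and to 32186113 and 30154706 in the newborn ones. Levels are given as CPM, counts scaled to library size after TMM normalisation. Egr1 (chromosome 18) had 161 (E24), 296 (E29), 340 (E32 right) and 366 CPM (E32 left) at day 3, against 214 and 273 CPM in the newborn labelled knockouts. Its change did not pass the test (log2 fold change 0.16 ± 0.36 SE, adjusted p = 0.794), and the groups overlapped. Newborn wild-type libraries had 47.0 and 60.8 CPM, so that Egr1 went against its labels, and "labelled knockout" is used throughout. Which part of the gene the allele lacks is not given in the sources used here. Some libraries stood apart. Newborn replicate 1 had 250 CPM of the lens crystallin Cryaa, against 37141 CPM in replicate 2 and 44243 to 60829 CPM at day 3, and its 35 lens genes summed to 1303 CPM. It was also the one library of the 6 with much Xist (340 CPM, at most 1.19 CPM in the others), the RNA of the inactive X chromosome. Of the Y-linked Ddx3y it had 0.0666 CPM, against 9.53 to 31.6 CPM in the others. By these genes it read as female and the others as male, so that sex differed within the newborn group. The part of sex in the calls was not tested. Among the day 3 eyes, the left eye of E32 had 1.48 CPM of opticin (Optc), made by the ciliary epithelium, against 42.5 to 71.3 CPM in the other 3. Basal epidermis genes summed to 5458 to 16009 CPM in the day 3 eyes and 12168 and 11025 CPM in the newborn labelled knockouts, with 1546 and 2215 CPM in newborn wild types. The right eye of E32 had 4035 CPM of 35 hair follicle genes, against 87.9 to 283 CPM in the other day 3 eyes.

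Of 15990 genes tested with edgeR's quasi-likelihood test, 528 (3.30%) rose at day 3 and 136 (0.851%) fell at a Benjamini-Hochberg adjusted p under 0.05, 664 (4.15%) in all. The median log2 change was 1.60 for genes that rose and -1.28 for genes that fell. Every day 3 library lay above both newborn libraries for 516 of the 528 genes, and below both for 136 of the 136. Over all genes tested, the groups did not overlap for 20.6% above and 20.9% below. The smallest adjusted p was 0.0183, and 4939 genes had an unadjusted p under 0.05. No gene passed when newborn replicate 1, E24 or E29 was left out, 52 passed without newborn replicate 2, and 2942 without E32, so that every call below rests on this small number of samples.

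GC content of the transcript moved with the change. Genes that rose had a median GC content of 57.4%, genes that fell 43.6%, and genes that did not pass 50.7%. With genes in 5 equal groups by GC content, the GC-richest held 304 of the genes that rose and 1 that fell, and the GC-poorest 13 that rose and 79 that fell. The median log2 change was -0.48 in the poorest group and 0.41 in the richest in labelled knockouts, and -0.69 and 0.48 in the control pair. With each library corrected for GC content, 28 genes (0.175%) rose and 4 (0.0250%) fell, all 32 among the 664. The part of GC content in the calls was not tested. Of the lists below, the GC-corrected median is given beside the uncorrected one.

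**Figure D1:**
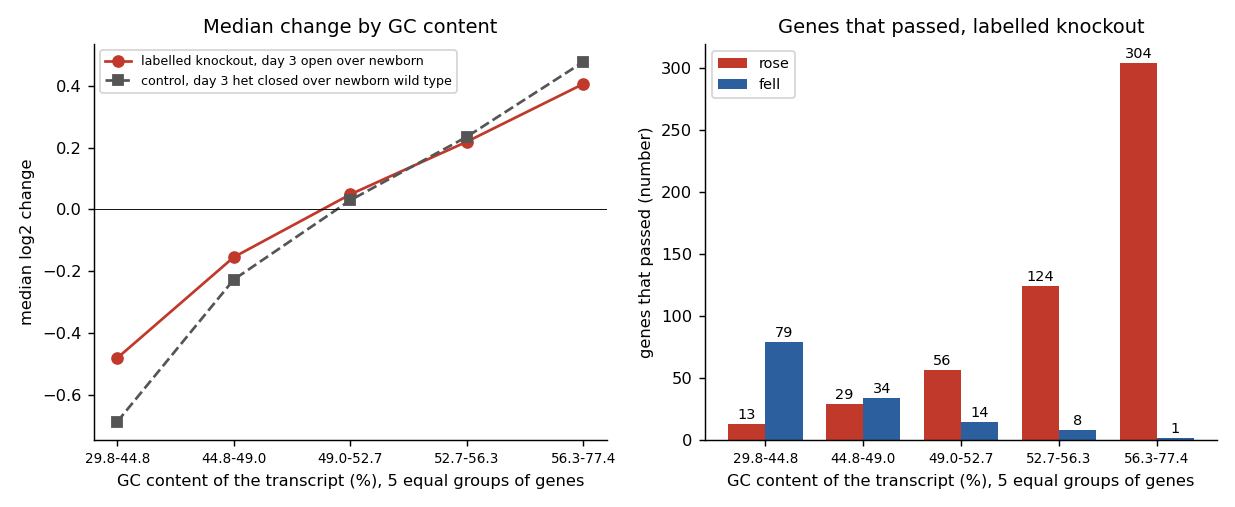
Left, median log2 change to day 3 in 5 equal groups of genes by transcript GC content, for labelled knockout eyes (circles) and the control pair (squares). Right, the number of genes that rose and fell in labelled knockout eyes in each group, with 304 rising in the richest and 79 falling in the poorest.

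Of the 12 largest rises among genes whose libraries did not overlap, 8 are described first. Tubb3, a tubulin of young neurons, had 1396, 1491, 794 and 759 CPM in E24, E29 and the right and left eyes of E32, against 120 and 170 CPM in newborn libraries. Its log2 change was 3.08 ± 0.38 SE (adjusted p = 0.0327), and no day 3 eye came near the newborn range. Scrt2, a zinc finger repressor of neurons, had 266, 381, 182 and 61.2 CPM at day 3, against 18.3 and 31.3 CPM at birth (log2 change 3.38 ± 0.55, adjusted p = 0.0420). Its relative Scrt1 rose by 2.91 ± 0.41 and Cdk5r2, an activator of the neuronal kinase Cdk5, by 3.10 ± 0.38. Ctnna2, the neuronal alpha-catenin, had 181, 186, 148 and 166 CPM at day 3 against 9.22 and 33.6 CPM at birth (3.03 ± 0.56). Ncan, a proteoglycan of neural tissue, had 126, 109, 50.1 and 354 CPM against 14.7 and 21.9 CPM (2.97 ± 0.36). For Ncan, Grm2 (a glutamate receptor, 3.25 ± 0.36) and the orphan receptor Gpr26 (3.17 ± 0.60), the left eye of E32 was the highest day 3 library, at 354, 59.1 and 21.5 CPM. With GC correction none of these 8 passed. The values were then 2.71 for Tubb3, 2.72 for Scrt2, 2.20 for Scrt1, 2.43 for Cdk5r2, 3.12 for Ctnna2, 2.74 for Ncan, 2.95 for Grm2 and 3.21 for Gpr26.

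The other 4 were Frmd8, Lonp1, Sftpb and Blk, and Frmd8 and Lonp1 also passed with GC correction (3.28 and 2.80). Frmd8, a FERM-domain protein that binds the iRhom cofactors of the shedding protease Adam17, had 1097, 1202, 1225 and 1218 CPM in the day 3 eyes, against 111 and 90.3 CPM at birth. This was a log2 change of 3.54 ± 0.24 (adjusted p = 0.0183). Lonp1, a protease of mitochondria, had 1123, 1221, 1228 and 1192 CPM against 133 and 138 CPM (3.13 ± 0.21, adjusted p = 0.0183). Adult libraries of the series had 42.9 to 52.2 CPM of Frmd8 and 69.7 to 88.1 CPM of Lonp1, below the newborn labelled knockouts. Both genes were thus high at day 3 only, and the cause was not tested. Sftpb, known as a surfactant protein of the lung, varied much more, with 23.7, 110, 81.3 and 25.4 CPM at day 3 against 2.56 and 0.997 CPM at birth (5.13 ± 0.86, adjusted p = 0.0442). Blk, a kinase of B cells, had 3.56, 6.34, 22.9 and 2.91 CPM against 0.366 and 0.345 CPM (4.46 ± 0.76, adjusted p = 0.0451). The B cell gene Cd79b stood at 13.2, 7.92, 48.4 and 4.91 CPM against 1.93 and 0.959 CPM, a change that did not pass (adjusted p = 0.0523). Cd79b was chosen after its values were seen. The list of lymphocyte and mast cell genes went mostly the other way. Of its 13 genes tested, 9 were lower at day 3 and none passed, at a median of -0.97, or -0.29 without newborn replicate 1. Optc was a further large rise (3.94 ± 0.63, adjusted p = 0.0412), in which the left eye of E32 lay below both newborn libraries.

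**Figure D2:**
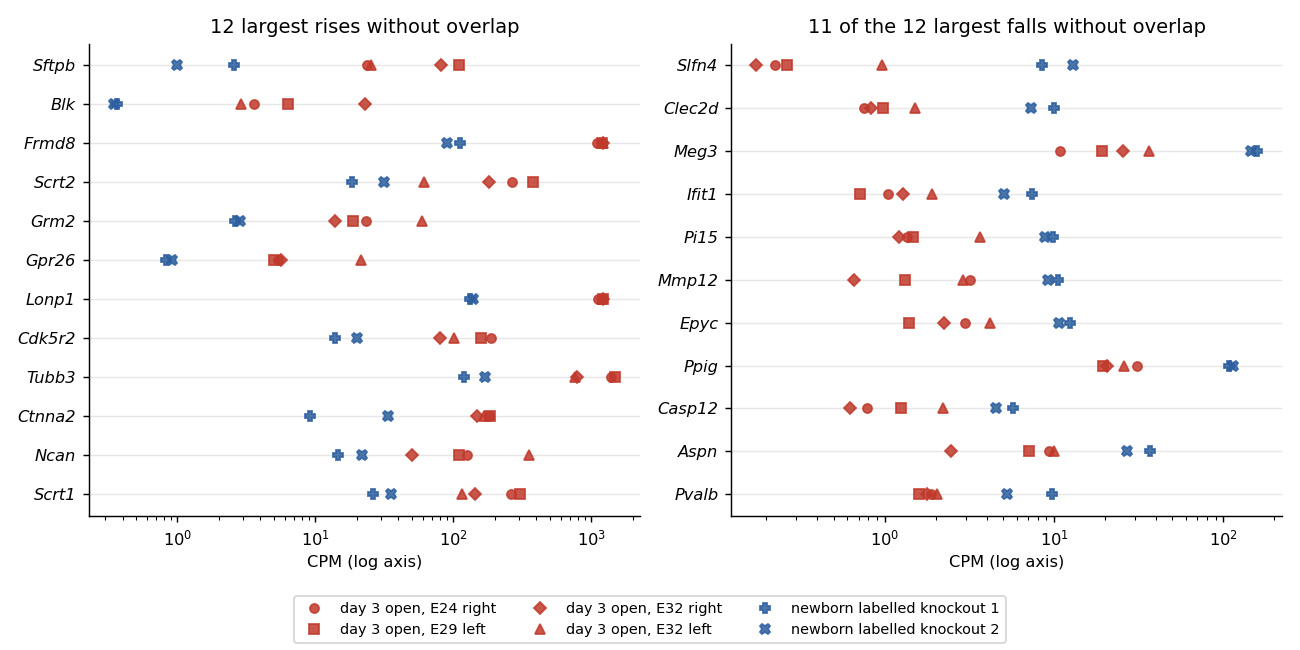
CPM in each library on a log axis, for the 12 genes with the largest rise (left) and 11 of the 12 with the largest fall (right) among genes that passed and whose libraries did not overlap (genes that passed with overlap, such as Optc and Slc18a3, are not shown, and Dux, with no day 3 read, cannot be drawn). Red symbols are the 4 day 3 open eyes and blue symbols the 2 newborn labelled-knockout libraries. The lack of overlap was a condition of the choice, and the 4 eyes lie close together for Frmd8 (1097 to 1225 CPM) and far apart for Sftpb (23.7 to 110 CPM).

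Among 40 gene lists described, the synapse list had the most genes that rose. Of 26 members tested, 10 rose (38.5%, against 3.30% of all genes tested) and none fell. The median log2 change was 1.47 against -0.01 over all genes tested. Of the 26 members, 16 had every day 3 library above both newborn ones, as had 20.6% of all genes tested. Bsn, a scaffold of the presynaptic active zone, had 143, 154, 83.5 and 93.4 CPM at day 3, against 18.9 and 26.0 CPM at birth (log2 change 2.51 ± 0.31, adjusted p = 0.0327). Grin1, the common subunit of NMDA receptors, had 36.0, 26.4, 17.7 and 44.1 CPM against 7.59 and 7.29 CPM (2.05 ± 0.21, adjusted p = 0.0299). No day 3 eye came near the newborn range in either gene. The postsynaptic scaffold Dlg4 rose by 1.55 ± 0.20. The vesicle proteins Syn1, Sv2a and Slc17a7, the active zone scaffold Pclo and the syntaxin Stx1a also rose, by 1.24 to 2.83. With GC correction 1 of the 26 rose, while the median was 1.60. The median was 1.25 without newborn replicate 1 and 1.89 without newborn replicate 2. Without E24 or E29 none passed, at medians of 1.24 and 1.47. Without E32, 16 of the 26 rose, when 1887 of all genes tested did.

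Syn1 (chromosome X) coats synaptic vesicles and is a textbook target of the neuronal repressor REST. It had 80.0, 62.2, 33.4 and 61.5 CPM at day 3, against 10.7 and 15.5 CPM at birth (log2 change 2.27 ± 0.30, adjusted p = 0.0338). The 250 bases before its start are shown because they hold TTCAGCACC, a part of the element that REST binds, in capitals (RefSeq, GRCm38.p6, minus strand, chrX:20920919-20921168).
Syn1: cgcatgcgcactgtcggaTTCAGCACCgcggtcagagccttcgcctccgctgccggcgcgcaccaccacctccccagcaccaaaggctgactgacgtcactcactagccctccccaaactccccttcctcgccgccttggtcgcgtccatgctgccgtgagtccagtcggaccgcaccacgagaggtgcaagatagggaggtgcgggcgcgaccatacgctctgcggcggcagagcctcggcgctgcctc
This motif was searched on both strands of RefSeq windows of 300 bases, 250 before and 50 after the start. It was in 7 of 411 matched genes that rose (1.70%) and in 1 of 110 that fell (0.909%). Of 19 matched synapse genes 1 held it (5.26%), as did 54 of 12479 matched genes tested (0.433%) and 97 of 27025 promoters (0.359%). The motif was chosen after the list of rising genes was known, and a match does not show a bound site.

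Amacrine and horizontal cell genes were higher at day 3 in 17 of 17 members tested. Of these, 6 rose (35.3%, against 3.30% of all genes tested) and none fell, with a median log2 change of 1.90. Slc32a1, the vesicle carrier of GABA and glycine, had 176, 195, 105 and 103 CPM, against 16.9 and 27.0 CPM at birth (2.85 ± 0.36, adjusted p = 0.0327). Slc6a9, the glycine transporter, had 97.9, 85.6, 70.5 and 58.5 CPM against 36.0 and 37.4 CPM (1.17 ± 0.21). Calb2 rose by 2.24 ± 0.40, and the GABA-making enzymes Gad1 and Gad2 by 1.98 ± 0.38 and 1.70 ± 0.32. Slc18a3, the acetylcholine carrier of starburst amacrine cells, had 26.3, 31.1 and 23.7 CPM in E24, E29 and the right eye of E32, but 1.08 CPM in the left eye of E32, below the 1.93 and 2.84 CPM of the newborn libraries. None of the list passed with GC correction, at a median of 1.87, nor without E24 or E29. With either newborn replicate, E24 or E29 left out, medians were 1.47 to 2.17. Without E32, 14 of the 17 rose, when 1887 of all genes tested did.

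Of 23 ganglion cell genes, 4 rose (17.4%, against 3.30% of all genes tested) and none fell, at a median log2 change of 1.65. L1cam, a cell adhesion protein of growing axons, had 185, 187, 151 and 130 CPM at day 3, against 39.7 and 42.0 CPM at birth (2.07 ± 0.19, adjusted p = 0.0250). Eomes, a transcription factor of some ganglion cells, rose by 2.15 ± 0.27, the neurofilament protein Ina by 2.48 ± 0.42 and Stmn2, a growth cone protein, by 1.60 ± 0.29. Gap43, also of growth cones, had 187, 185, 118 and 119 CPM against 75.5 and 66.4 CPM and did not pass (adjusted p = 0.0523). With GC correction none passed, at a median of 1.68, nor without E24 or E29. With either newborn replicate, E24 or E29 left out, medians were 1.25 to 2.03. Without E32, 17 of the 23 rose, when 1887 of all genes tested did. The left eye of E32 had low levels of some retinal lists and not of others. It had 897 CPM of the 43 rod genes and 1488 CPM of the 28 progenitor genes, 0.452 and 0.299 times its fellow eye. Its synapse genes, however, summed to 1440 CPM, 1.37 times its fellow eye, with Slc17a7 at 182 CPM against 26.1 CPM.

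Retinal progenitor and neurogenic genes had a median log2 change of 1.93, with 26 of 28 higher at day 3 and 1 of 28 rising (3.57%, against 3.30% of all genes tested). With GC correction none passed, at a median of 1.88, and with 1 sample left out the median was 1.53 to 2.49. The gene that rose was Lhx2, a homeobox gene of retinal progenitors, with 467, 455, 325 and 63.0 CPM at day 3 against 51.7 and 78.2 CPM at birth (2.53 ± 0.43, adjusted p = 0.0455). The left eye of E32 overlapped the newborn range and the other 3 eyes were well above it. In Six3, Neurog2 and Atoh7 that eye likewise lay within or below the newborn range, and none of them passed (adjusted p = 0.0523, 0.0543 and 0.0510). Atoh7, required for ganglion cells, had 18.7, 40.1, 19.6 and 0.997 CPM against 2.23 and 2.91 CPM. With the right eye of E32 alone standing for that mouse, 20 of the 28 rose, when 1548 of all genes tested did. With the left eye alone none of the 28 rose, when 152 of all genes did. Without E32, 24 of the 28 rose, when 1887 of all genes did. Of 49 genes of mitosis and DNA replication, 2 rose (4.08%, near the 3.30% of all genes tested), the replication licensing factor Cdt1 (1.07 ± 0.16) and the polymerase subunit Pold1 (1.33 ± 0.21). The median was 0.40, and 0.52 with GC correction.

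None of 43 rod photoreceptor genes passed, while 38 were higher at day 3 and the median log2 change was 1.37, or 1.5 with GC correction. The median was 0.98 without newborn replicate 1, 2.28 without newborn replicate 2, 0.85 without E24 and 1.83 without E32. Rbp3, the retinoid-binding protein of the space around photoreceptors, had 1410, 974, 526 and 77.7 CPM at day 3, against 79.4 and 279 CPM at birth (2.33 ± 0.80, adjusted p = 0.119). Aipl1, a chaperone of rod phosphodiesterase, had 20.6, 18.3, 14 and 1.16 CPM against 2.06 and 6.06 CPM (1.95 ± 0.61, adjusted p = 0.101). In both, the left eye of E32 lay below the other 3 eyes and below both newborn libraries. Without E32, 12 of the 43 rose, when 1887 of all genes tested did. The list summed to 836 and 1375 CPM in newborn labelled knockouts, less than the 3252 and 3862 CPM of newborn wild types. Of 13 cone genes, 1 rose (7.69%, against 3.30% of all genes tested), Sall3 (2.83 ± 0.32), a transcription factor of cones and horizontal cells. Of 15 bipolar genes none passed. The medians were 0.94 for cone and 0.60 for bipolar genes, or 0.89 and 0.42 with GC correction. Among 18 genes of Muller glia and astrocytes, the transcription factor Sox9 rose (1.11 ± 0.20) and the calcium-binding S100b fell (-1.12 ± 0.19), at a median of 0.61, or 0.51 with GC correction. Each was 5.56% of the list, while of all genes tested 3.30% rose and 0.851% fell.

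Promoters of Rbp3 and Aipl1 are shown because they hold TAATCC, the core bound by the photoreceptor factors Crx and Otx2, here on the opposite strand as GGATTA in capitals. They are the 250 bases before each start (RefSeq, GRCm38.p6), of Aipl1 on the minus strand at chr11:72037510-72037759 and of Rbp3 on the plus strand at chr14:33953753-33954002.
Aipl1: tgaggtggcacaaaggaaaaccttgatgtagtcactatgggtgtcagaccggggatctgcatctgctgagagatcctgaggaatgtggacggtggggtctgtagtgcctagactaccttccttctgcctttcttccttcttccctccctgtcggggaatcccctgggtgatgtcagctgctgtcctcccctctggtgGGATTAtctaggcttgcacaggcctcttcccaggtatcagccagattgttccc
Rbp3: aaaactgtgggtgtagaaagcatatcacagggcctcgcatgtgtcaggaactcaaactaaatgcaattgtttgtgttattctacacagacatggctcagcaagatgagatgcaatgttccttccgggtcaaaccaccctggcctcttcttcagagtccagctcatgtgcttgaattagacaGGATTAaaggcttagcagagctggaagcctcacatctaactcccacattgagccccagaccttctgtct
On either strand of the window of 300 bases, TAATCC was in 11 of 31 matched rod genes (35.5%), in 4 of 19 matched synapse genes (21.1%), in 14 of 411 matched genes that rose (3.41%), in 728 of 12479 matched genes tested (5.83%) and in 1935 of 27025 promoters (7.16%). These shares describe the sequences and were not tested.

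**Figure D3:**
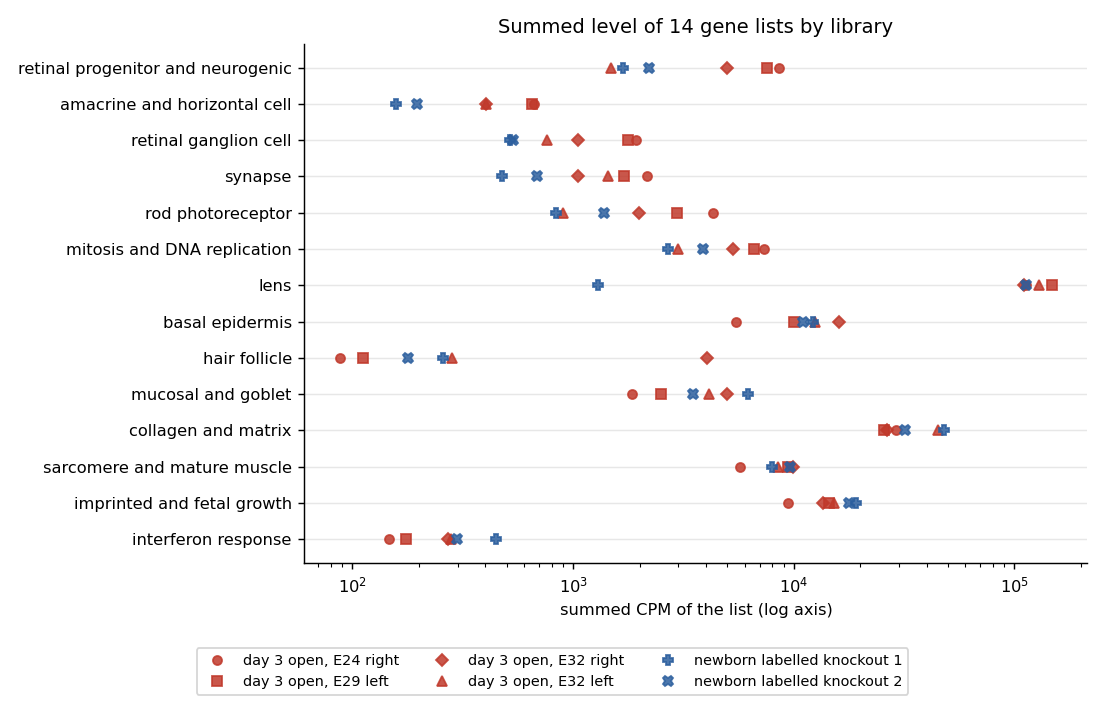
Summed CPM of 14 gene lists in each library on a log axis, day 3 open eyes in red and newborn labelled-knockout libraries in blue. The left eye of E32 (triangle) lies with the newborn libraries for progenitor and rod genes, the right eye of E32 (diamond) is far above all others for hair genes, and newborn replicate 1 (plus) is far below for lens genes.

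Among genes that fell, Dux had no read in any of the 4 day 3 libraries, against 197 and 44 reads in newborn replicates 1 and 2. Dux is a multi-copy gene of early embryos. Against a floor of 3 reads over the day 3 group, it was at least 147-fold lower than the newborn mean. Against newborn replicate 2 alone the bound was 60.2-fold and against replicate 1 alone 234-fold, and reads of its near-identical copies may have been shared. Its adjusted p was 0.0478. Dux also varied widely between like libraries, with 26.5 and 0.557 CPM in newborn wild types and 1.57 and 0 CPM in the right and left eyes of E28. Its change in the control pair did not pass (adjusted p = 0.295). Slfn4, a gene of myeloid cells induced by interferon, had 0.225, 0.264, 0.174 and 0.957 CPM at day 3, against 8.49 and 13 CPM at birth (-4.89 ± 0.51, adjusted p = 0.0299). Clec2d, a lectin-like ligand of natural killer receptors, had 0.750, 0.981, 0.835 and 1.52 CPM against 9.95 and 7.29 CPM (-3.15 ± 0.37). Other falls were of the interferon-induced Ifit1 (-2.46 ± 0.47), the peptidase inhibitor Pi15 (-2.43 ± 0.37), the macrophage elastase Mmp12 (-2.26 ± 0.43) and the inflammatory caspase Casp12 (-2.17 ± 0.41). Ppig, a cyclophilin of splicing bodies, had 30.7, 19.6, 20.5 and 25.8 CPM against 108 and 114 CPM (-2.19 ± 0.22), and it was among the 4 genes that also fell with GC correction.

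The 3 long RNAs Meg3, Rian and Mirg of the imprinted Dlk1-Dio3 region of chromosome 12, expressed from the maternal copy, fell together. Meg3 had 10.9, 19.1, 25.7 and 36.4 CPM at day 3, against 159 and 146 CPM at birth (log2 change -2.90 ± 0.43, adjusted p = 0.0382). Rian had 34.8, 42.0, 36.6 and 44.5 CPM against 159 and 157 CPM (-2.01 ± 0.16, adjusted p = 0.0218), and Mirg 2.59, 2.41, 2.37 and 3.19 CPM against 9.09 and 8.90 CPM (-1.79 ± 0.28, adjusted p = 0.0387). Day 3 eyes were all far below both newborn libraries. Adult libraries had 146 CPM (wild type) and 95.2 and 99.2 CPM (labelled knockout) of Meg3. Of the ages in the series, Meg3 was thus low at day 3 only, and the cause was not tested. With GC correction the values were -2.84, -1.46 and -1.98, and none of them passed. These were the calls among 22 genes of imprinting and fetal growth (13.6%, against 0.851% of all genes tested). Of the 22, 16 were lower and the median was -0.39, or -0.31 with GC correction. Dlk1, a protein-coding gene of the same region expressed from the paternal copy, had 503, 1423, 1357 and 1633 CPM against 1528 and 1276 CPM and did not pass (adjusted p = 0.716). The growth regulators Igf2 and H19 had values of -0.88 ± 0.28 (adjusted p = 0.102) and -0.63 ± 0.38 (adjusted p = 0.300).

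Of 45 genes of sarcomere and mature muscle, 4 fell (8.89%, against 0.851% of all genes tested) and none rose, with 37 lower and a median of -0.60. Tnni2, fast skeletal troponin I, had 64.8, 90.9, 115 and 101 CPM at day 3, against 225 and 239 CPM at birth (-1.39 ± 0.25, adjusted p = 0.0471). The fast troponin Tnnt3 fell by 1.07, the fast light chain Myl1 by 1.00 and the calcium buffer Pvalb by 2.07 on the log2 scale. The sum of the list overlapped between the groups, at 5704 to 9958 CPM in day 3 eyes and 8006 and 9603 CPM at birth. In the cornea list, 3 of 16 genes fell (18.8%) at a median of -0.62, all small leucine-rich proteoglycans of stroma. Lum had 118, 75.9, 68.2 and 138 CPM against 344 and 253 CPM (-1.60 ± 0.25, adjusted p = 0.0391), Ogn fell by 0.97 and Epyc by 2.20. Asporin (Aspn), of the same family, fell by 2.09 ± 0.26. With GC correction the changes were -1.13 for Lum, -0.05 for Ogn, -1.45 for Epyc and -1.05 for Aspn. Lum was also the one member of 37 collagen and matrix genes to pass (2.7%), with 31 lower and a median of -0.49. Col3a1, a fibrillar collagen, had 2089, 1964, 2151 and 3692 CPM against 6488 and 4155 CPM, which did not pass (adjusted p = 0.0833). With GC correction no gene of the muscle, cornea and collagen lists passed, at medians of -0.63, -0.35 and -0.51, nor without newborn replicate 1, newborn replicate 2, E24 or E29.

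Of 95 ribosomal protein genes, 4 fell (4.21%, against 0.851% of all genes tested) and 1 rose (1.05%, against 3.30%). In all, 71 were lower, at a median of -0.31, or -0.30 with GC correction. Rps4x had 59.2, 62, 72.2 and 66.4 CPM at day 3, against 155 and 152 CPM at birth (-1.27 ± 0.16, adjusted p = 0.0327). Rpl23, Rps24 and Rps29 fell by 0.97, 1.02 and 1.45. Single ribosomal genes may share reads with their processed pseudogenes. Emcn, a sialomucin of endothelium, fell (-1.58 ± 0.18) as the only one of 31 endothelial and mural genes (3.23%). Sgk1, a kinase induced by glucocorticoids, fell by 0.92 as the only one of 10 genes of its list (10%). The medians of these 2 lists were -0.27 and -0.15, or -0.47 and -0.24 with GC correction.

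Genes of the lid surface gave few calls. None of 22 basal epidermis genes passed, at a median of -0.27, or -0.25 with GC correction. The keratin Krt14 had 1306, 2588, 3345 and 2710 CPM at day 3 against 1500 and 2526 CPM at birth. Of 47 suprabasal genes, 1 rose (2.13%, below the 3.30% of all genes tested). It was Elovl4, which makes the very long fatty acids of the skin barrier and of photoreceptors (1.19 ± 0.19), and it passed with GC correction too. The right eye of E32 summed to 7502 CPM of this list, with 476 to 3125 CPM in the other day 3 eyes and 4063 and 1052 CPM at birth. The median of the suprabasal list was 0.04, or 0.01 with GC correction, 1.82 without newborn replicate 1 and -1.55 without E32. Hair follicle genes had a median of 2.26, or 2.22 with GC correction, which turned to -1.47 without E32. With the left eye alone standing for E32 it was -0.65, and with the right eye alone 3.07, so that this value was set by the right eye of E32. None of 39 genes of keratinocyte wounding and none of 24 mucosal and goblet genes passed, at medians of -0.32 and -1.11, or -0.12 and -1.07 with GC correction. The mucosal median was -0.26 without newborn replicate 1, and -1.64 without E32. Of 36 genes known from eyelid closure, 2 rose (5.56%, against 3.30% of all genes tested) and 1 fell (2.78%, against 0.851%). Those that rose were Vangl2 of planar cell polarity (1.43 ± 0.16) and Inhbb, the activin beta B subunit (1.11 ± 0.16). The kinase Rock2 fell (-0.88 ± 0.16). The median of this list was -0.26, or -0.01 with GC correction. Vangl2 had 91.5, 97.8, 92.2 and 71.5 CPM at day 3 against 35.6 and 31.9 CPM at birth. Among 14 lipid genes of meibomian and sebaceous glands, 2 rose (14.3%, against 3.30% of all genes tested). They were Fasn, the fatty acid synthase (1.74 ± 0.30), and Far2, described below. The median was 0.50, or 0.56 with GC correction and -0.74 without E32. Of 34 immediate-early genes, the ERK phosphatase Dusp4 alone passed (1.05 ± 0.19). This was 2.94% of the list, near the 3.30% of all genes tested that rose. The median of the list was -0.05, or -0.29 with GC correction.

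Inflammatory lists were mostly lower at day 3, with few calls. Of 33 interferon response genes, 32 were lower, at a median of -1.09, or -1.02 with GC correction, and 1 fell (Ifit1, 3.03%, against 0.851% of all genes tested). The sum of the list was 146, 174, 272 and 280 CPM in day 3 eyes, against 448 and 297 CPM at birth. Neutrophil and acute inflammation genes had a median of -1.07 over 42 genes, of which none passed, and -0.73 with GC correction. Of 33 macrophage and antigen presentation genes, the MHC class II gene H2-Aa rose, with 14.6, 22.7, 33.4 and 6.74 CPM against 5.39 and 2.34 CPM (2.33 ± 0.45, adjusted p = 0.0499), although 25 of the list were lower, at a median of -0.37 with and without GC correction. This 1 of 33 (3.03%) was near the 3.30% of all genes tested. The lens list had no call over 35 genes and a median of 0.97, or 0.75 with GC correction. This median was -0.0034 without newborn replicate 1 and 6.42 without newborn replicate 2. In all, 20 of the 40 lists had no call, among them cartilage and bone, developmental muscle, pigment epithelium and melanocyte, erythroid, adipocyte, lacrimal, Schwann cell, clock, glycolysis and histone genes, with medians of -0.61 to 0.23, or -0.75 to 0.19 with GC correction. The list of lymphocyte and mast cell genes had a median of -0.97 (-1.03 with GC correction, -0.29 without newborn replicate 1). That of keratin-associated proteins was 4.15 (4.01 with GC correction) over the 4 of 49 that were tested. This list summed to 440 CPM in the right eye of E32, 0.490 to 3.35 CPM in the other open eyes and 4.63 and 4.56 CPM at birth. With the left eye of E32 alone, or without E32, none of the 49 was tested, so that the right eye of E32 set this median.

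The control pair changed in the same direction for most of these genes. Day 3 heterozygous closed eyes were higher than newborn wild-type eyes for 511 of the 528 genes that rose and lower for 134 of the 136 that fell. The changes of both pairs also went together over all 15989 genes with both values (Spearman correlation 0.583). With GC content they had correlations of 0.434 in labelled knockouts and 0.505 in the control pair. The part of GC content in the shared direction was not tested. The control day 3 arm is 1 mouse, both eyes of E28, so its calls assume that it varies like the other groups. Of the control pair's own calls (287 rose, 1.61%, and 71 fell, 0.399%, of 17781 genes), 115 rose in both pairs, 21.8% of the genes that rose in labelled knockouts and 40.2% of the 286 control genes tested in both. For falls, 44 were shared, 32.4% and 62% of the genes that fell. Frmd8 had 929 and 966 CPM in heterozygous day 3 eyes against 67.6 and 66.6 CPM in newborn wild types, a log2 change of 3.70 ± 0.24. Rian was lower by 2.33 ± 0.23 and Meg3 by 3.00 ± 0.60 in the control pair, where Meg3 did not pass (adjusted p = 0.0544). In controls, the medians were 0.41 for synapse, 0.22 for amacrine and horizontal, 0.52 for ganglion, 0.75 for progenitor and -0.47 for rod genes, and whether these list medians differed between the pairs was not tested. The summed level of each of these 5 lists was lower in both newborn labelled knockouts than in both newborn wild types. Amacrine and horizontal genes, for example, summed to 667, 652, 404 and 402 CPM in day 3 open eyes, 904 and 663 CPM in heterozygous closed eyes, 158 and 197 CPM in newborn labelled knockouts and 460 and 528 CPM in newborn wild types. Collagen and matrix genes went the other way, with 47819 and 32015 CPM in newborn labelled knockouts and 10781 and 15652 CPM in newborn wild types, and the part of such differences in the retinal values was not tested. A test of the difference between both changes, in which genotype and lid state differ together, found 1 gene of 17781 (0.00562%), Far2, and 1263 at an unadjusted p under 0.05.

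**Figure D4:**
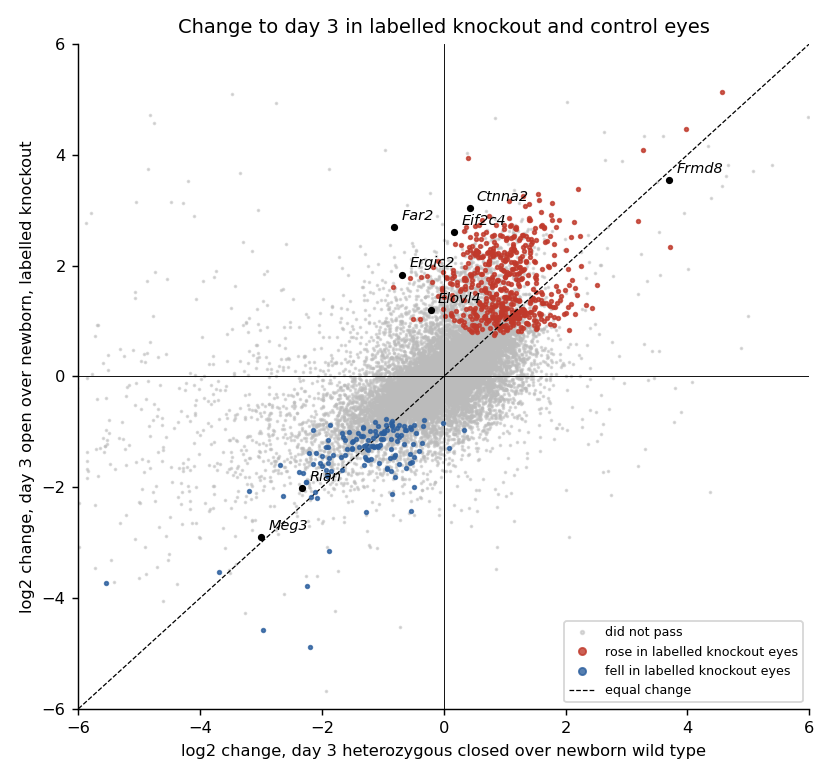
Log2 change of each gene from birth to day 3 in labelled knockout eyes (vertical) against the control pair (horizontal), with genes that rose in red and genes that fell in blue; 155 genes lie outside the axes. Most coloured points share their sign in both pairs, while Far2 and Ergic2, which rose in labelled knockouts, lie left of the vertical line at control values of -0.81 and -0.68.

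Far2, a reductase that makes fatty alcohols for wax, had 104, 115, 107 and 115 CPM in the day 3 open eyes, against 16.5 and 17.6 CPM in newborn labelled knockouts (2.69 ± 0.16, adjusted p = 0.0183). In the control pair it was lower, with 11.1 and 11.9 CPM at day 3 and 19.6 and 17.5 CPM in newborn wild types (-0.81 ± 0.20, adjusted p = 0.0755). The difference of the changes was 3.52 ± 0.26 (adjusted p = 0.0308). With GC correction 0 of 17781 genes (0%) passed in edgeR and 1379 had an unadjusted p under 0.05, with Far2 at 3.31 (adjusted p = 0.0699). The Far2 difference did not pass with this correction, nor without newborn labelled-knockout replicate 1, either newborn wild type, E24 or E29, where its value was 3.32 to 3.62. Closed eyes of the labelled-knockout mice E24 and E29 had 11.8 and 11.9 CPM, so that the step lay between the open and the closed eye of the same mouse. Ergic2, a protein of vesicle traffic next to Far2 on chromosome 6 but for an antisense gene, had 117, 127, 112 and 124 CPM in open eyes, 22.3 to 24.5 CPM in the 4 closed day 3 eyes and 33.0 and 34.7 CPM in newborn labelled knockouts. Eif2c4, an Argonaute gene on chromosome 4, had 75.9 to 85.1 CPM in open eyes, 17.8 to 26.9 CPM in closed day 3 eyes and 12.5 and 14.1 CPM in newborn labelled knockouts. Ergic2 and Eif2c4, named after their values were seen, had differences of changes of 2.53 ± 0.24 and 2.45 ± 0.24 that did not pass (adjusted p = 0.0659 for both). The reads carry no strand, so that overlapping genes on the other strand could share them.

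Of the 528 genes that rose, 10 had every open eye more than 2 times above every closed day 3 eye (1.89%), against 231 of all genes tested (1.44%). They included Lonp1, Csrnp1, Pld4 and Bmp7 besides the 3 genes above. Lonp1 had 350 and 418 CPM in the closed eyes of labelled knockouts and 459 and 424 CPM in heterozygous eyes. Lid state was the label that separated these eyes, and no label names a library batch, so that lid state and a batch that follows it cannot be told apart.

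**Figure D5:**
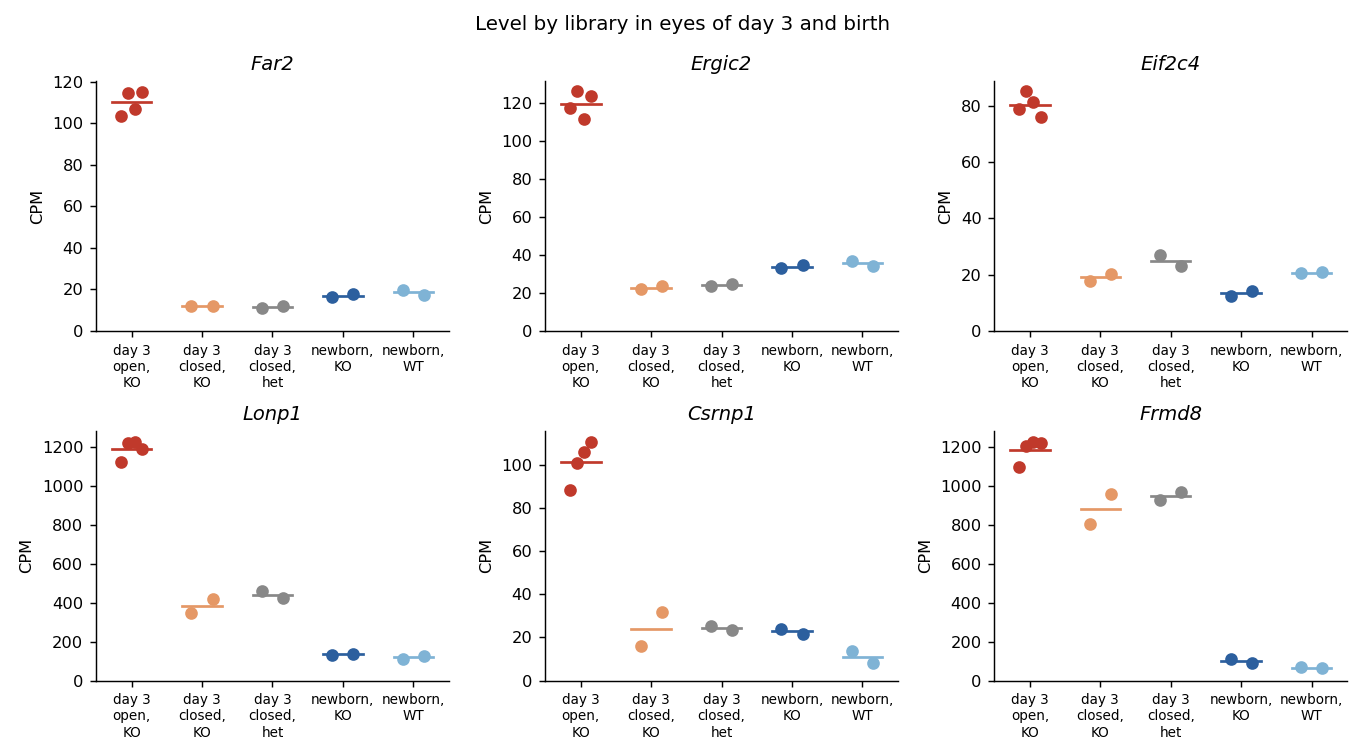
CPM by library for 6 genes, with points for single libraries and a line for their mean; KO stands for labelled knockout, het for Egr1+/- and WT for wild type. Far2, Ergic2, Eif2c4 and Csrnp1 are high in the 4 day 3 open eyes alone, Lonp1 is intermediate in closed day 3 eyes, and Frmd8 is high in all day 3 eyes.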

How the data were processed

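RNA of 15 eye libraries was measured by poly(A)+ RNA-seq on the Illumina HiSeq 2000, per the labels' protocols, and 10 libraries enter the comparisons here. Per the submitters' processing notes the genome build was mm8, and the tools named, without roles, were TopHat2 2.0.11, Bowtie 0.12.9, CASAVA 1.8 and SAMtools. As deposited by the authors, each file gives the raw read count per RefSeq transcript and the RPKM, which per the file headers and values is that count over exon length and a library total. The annotation release and counting rule are not given in the sources used here. The protocol marks no strand, so overlapping antisense genes share reads, and paralogs and pseudogenes may too. The labels mention fixation of eyes in one protocol and RNAlater in another, and name no batch.

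For each of 20418 symbols the transcript with the highest mean count over all libraries was used (2673 symbols had several). Counts of both open eyes of E32 were summed. edgeR 4.0.16 (R 4.3.3, limma 3.58.1) gave TMM scaling, filterByExpr filtering, quasi-likelihood tests and Benjamini-Hochberg adjusted p-values over all genes tested, called under 0.05. The 3 mice against 2 libraries left 3 residual degrees of freedom. SE is the log2 change over the root of F. A second model with the newborn wild-type and day 3 heterozygous closed libraries tested the difference of changes. DESeq2 1.42.0, other scalings, filters, eye handling and left-out samples were alternatives. GC correction, added after seeing the data, fitted a loess (span 0.5, degree 1) of log2 CPM (prior count 2) on transcript GC content for each library, for 15880 of 15990 genes with a GC value from GENCODE transcripts. Promoters are RefSeq sequences (GRCm38.p6). Python 3.11.15 with pandas 2.3.3 and matplotlib 3.10.9 drew the rest.

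On simulated counts for 15990 genes, the comparison of day 3 open with newborn called 20 of 100 genes changed by 1 on the log2 scale and 88 of 100 changed by 2, with 4 false calls. For the difference of changes over 17781 genes, 0 and 39 of 100 were called, with 4 false calls. These counts were drawn with the fitted dispersion trend, without a GC slope and without libraries that stand apart. The false calls thus do not give the error rate of the real data. Depth was 30154706 to 39506180 reads per library in the main comparison.

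Named genes were Egr1, the 12 largest rises and 12 largest falls that passed with non-overlapping libraries and at least 1 RPKM in the higher group (ID-only, Y-linked genes and Xist left out), up to 5 members of each list with the smallest p and members that define it. The groups, lists and rules were chosen with earlier results of these data known. Library totals, scaling and TMM can shift all log2 changes, as the closing section gives. Some genes are not reported here.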

Additional observations from a re-analysis of the deposited data

Results flagged for a closer look

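In the 4 day 3 open eyes, which come from 3 mice, 1 library stood far from the others for 6 of the 40 lists and 3 of the 25 genes examined, by a gap over Dixon's 95% critical value. For 4 independent, normally spread values, chance sets apart about 1 in 20 such groups. Here both eyes of E32 come from 1 mouse and CPM were not put on a log scale, so that this rate may not hold. The left eye of E32 was the highest for cartilage and bone genes, with 628 CPM against 118 to 173 CPM in the other open eyes. It was also the highest for Gpr26 (21.5 CPM, others 4.98 to 5.67 CPM), Slfn4 (0.957 CPM, others 0.174 to 0.264 CPM) and Pi15 (3.63 CPM, others 1.22 to 1.47 CPM). The right eye of E32 was the highest for hair follicle genes, with 4035 CPM against 87.9 to 283 CPM, and for keratin-associated protein genes, with 440 CPM against 0.490 to 3.35 CPM. The eye of E24 was the lowest for developmental muscle genes, with 963 CPM against 1602 to 1727 CPM, and for erythroid genes, with 1519 CPM against 3899 to 4158 CPM. It was the highest for pigment epithelium and melanocyte genes, with 3214 CPM against 2299 to 2455 CPM.

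Far2 was set apart because its change to day 3 differed between labelled knockout open eyes and the control pair by 3.52 on the log2 scale, higher in 4 of 4 open libraries than in every other day 3 or newborn library.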

How the results depend on the processing

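Of 664 genes called between day 3 open and newborn labelled knockouts, the count was 498 with DESeq2 size factors, 801 with no filter and 810 at a mean of at least 5 RPKM. It was 334 with the authors' library totals (194 rose, 140 fell, all genes shifted by a median of -0.23), 410 with scaling without lens genes, 337 with transcripts summed, 246 with 4 eyes as separate samples, 172 with the left eye of E32 alone and 32 with GC correction. It was 3656 with the DESeq2 Wald test, 3345 in a fit of all 7 groups and 2165 with the right eye of E32 alone. Leaving out 1 sample gave 0 to 2942 genes, namely 0 without newborn replicate 1, E24 or E29 (2233, 4937 and 3071 at an unadjusted p under 0.05), 52 without newborn replicate 2 (7 of them among the 664) and 2942 without E32 (all 664 among them). Causes of these shifts were not tested. Of 66 named genes that passed, none reversed in an alternative run that tested it. They were chosen by p-value, or by size and non-overlap, in these same data, so that this outcome was largely set by the choice. With GC correction 6 of them passed and without E32 66. At a mean of at least 5 RPKM 46 passed, and the rest were not tested.

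For the difference of changes, the count of 1 gene was 118 with the DESeq2 Wald test and 0 with GC correction, and leaving out 1 sample gave 0 to 56. Newborn replicate numbers are shared only as numbers: the replicate block gave 0 genes (Far2 3.51, adjusted p = 0.191), and 0 with GC correction as well, and same-numbered newborn libraries deviated with a correlation of 0.181 across genes in 2 pairs. No paired analysis was possible for day 3 open against newborn because the day 3 labels carry no replicate numbers.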

Other observations

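Several genes that did not pass between day 3 open and newborn labelled knockouts stepped between open and closed day 3 eyes, and were chosen after their values were seen. Wdr45, a protein of autophagy, had 42.2 to 53.0 CPM in open eyes, against 237 to 274 CPM in the 4 closed day 3 eyes, with 32.3 and 31.9 CPM in newborn labelled knockouts. Cdc40, a splicing factor, had 17.7 to 23.2 CPM in open eyes against 105 to 119 CPM in closed ones. Ubr2, a ubiquitin ligase, had 84.0 to 96.2 CPM against 221 to 260 CPM. Over all genes tested, 10 (0.0625%) had every open eye at less than 0.5 of every closed day 3 eye.

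Of the 32 genes called with GC correction, also chosen after their values were seen, Reln, a matrix protein of developing neurons, had 174, 180, 131 and 130 CPM in day 3 open eyes and 38.7 and 42.1 CPM in newborn labelled knockouts. Adamtsl4, a matrix protein of the lens zonule, had 703, 727, 703 and 771 CPM against 118 and 89.3 CPM.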
